A study of Mus musculus with 2 samples.

Results

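The nuclear genes of respiratory complexes II, III and V and of cytochrome c were examined in neonatal mouse calf muscle. They were chosen by symbol: Sdha to Sdhd with the Sdhaf assembly factors, the genes that start with Uqcr or Atp5, Cyc1 and Cycs, each with at least 1 protein coding transcript. The rule gave 36 gene entries with 35 symbols among the 55536 named genes, and used no measured value. Atp5o has 2 entries. Usmg5, the DAPIT subunit of complex V, and Atpif1, its inhibitor, carry other symbols in this annotation and were not among them.

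Complex II, succinate dehydrogenase, oxidises succinate and passes electrons to ubiquinone, and is the only complex of the chain with no subunit encoded in mitochondrial DNA. Complex III passes electrons from ubiquinol to cytochrome c and pumps protons. Complex V, ATP synthase, lets protons flow back through a rotating ring of c subunits and makes ATP in its F1 head. Muscle uses this system to supply contraction, and its mitochondrial content differs between fibre types.

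The series holds 1 group of 2 total RNA libraries from the gastrocnemius, the large calf muscle, of female B6CASTF1/J mice at 10 days of age. These are F1 hybrids of C57BL/6J and CAST/EiJ, with no transgene or treatment named in the labels. Ribosomal RNA was reduced, ERCC spike-in RNAs were added, and 300 ng of RNA went into each library. The libraries are labelled biological replicates 1 and 2, and whether each comes from 1 animal is not in the labels. With 1 library on each side of any comparison, no test of a difference is possible and no p is given. Values are therefore given per library or as mean ± SD (n = 2). Levels are TPM, abundances corrected for effective length and scaled to a common total, from the tables with the columns of RSEM unless kallisto-format is named.

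The libraries held 35666425 and 39650296 counts on named genes. All 8 skeletal muscle markers were detected, with summed TPM of 80116 and 93821. Of 5 heart markers, 2 were detected, Myh6 at a TPM of 47.3 and 37.3 and Myl4 at 21.65 and 17.8. Myl7 was at 0 in both libraries. The 8 bone and cartilage markers summed to a TPM of 314.9 in replicate 1 and 14.7 in replicate 2, and 6 of the 8 were at least 2-fold lower in replicate 2. The 5 blood markers summed to 1302 and 976, and the 6 fat markers, of which Ucp1 was at 0 counts in both libraries, to 16.0 and 6.92. Replicate 1 thus held more RNA of bone, blood and fat markers than replicate 2. In bulk tissue, fewer cells of a type and less RNA per cell cannot be told apart.

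Sequences of the c subunit genes are shown because 3 genes on different chromosomes encode the same mature protein, and their bases show how far reads can be assigned between them. Atp5g1 (chr11:96068852-96075670), Atp5g2 (chr15:102662864-102672352) and Atp5g3 (chr2:73908447-73911326) all lie on the minus strand of mm10. The last 75 codons of their coding sequence, in the reference transcripts of GENCODE M21, follow, with capitals at the 57 positions where the 3 genes are not all alike.
Atp5g1: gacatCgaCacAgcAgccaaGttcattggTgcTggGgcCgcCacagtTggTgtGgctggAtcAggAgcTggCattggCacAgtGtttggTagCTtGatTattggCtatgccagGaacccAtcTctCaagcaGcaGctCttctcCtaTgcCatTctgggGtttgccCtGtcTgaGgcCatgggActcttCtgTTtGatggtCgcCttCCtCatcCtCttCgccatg
Atp5g2: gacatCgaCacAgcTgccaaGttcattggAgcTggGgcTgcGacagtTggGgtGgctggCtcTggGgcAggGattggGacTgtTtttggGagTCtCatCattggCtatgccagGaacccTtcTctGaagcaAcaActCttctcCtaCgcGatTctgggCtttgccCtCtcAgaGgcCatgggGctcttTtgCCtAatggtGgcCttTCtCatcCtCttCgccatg
Atp5g3: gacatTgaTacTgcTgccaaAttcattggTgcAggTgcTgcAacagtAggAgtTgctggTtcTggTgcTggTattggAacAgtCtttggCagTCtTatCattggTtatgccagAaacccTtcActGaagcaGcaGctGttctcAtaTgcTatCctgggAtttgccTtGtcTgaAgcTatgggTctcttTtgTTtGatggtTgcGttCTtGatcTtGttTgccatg
These 225 bases were 84.9% identical between Atp5g1 and Atp5g2, with 34 differing bases. They were 80% identical between Atp5g1 and Atp5g3, with 45 differing bases, and 78.7% identical between Atp5g2 and Atp5g3, with 48. None of the differing bases changes the encoded residue in any of the 3 pairs, and no pair shares a run of 31 bases in this stretch. A perfect match of 31 bases within it therefore belongs to 1 of the 3 genes. Atp5g1 and Atp5g2 each share long runs with a pseudogene, described with the table formats, whereas Atp5g3 shares no run of 31 bases with another gene.

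Transcripts of these genes were abundant. Of the 36 entries, 35 were detected at a TPM of 1 or more in both libraries, where 52.3% of nuclear protein coding genes were. TPM was at least 100 in both libraries for 28 of them, a limit at which other genes were not counted. The median TPM of the 36 entries was 271 in replicate 1 and 310 in replicate 2. Over nuclear protein coding genes it was 1.88 and 1.4. Together the 36 entries held 1.08% of gene TPM in replicate 1 and 1.24% in replicate 2, a mean of 1.16% ± 0.12 (SD, n = 2). Of nuclear protein coding TPM they held 2.48% ± 0.21. The 16 complex V subunits took 67.6% ± 0.57 of the summed TPM, the 9 complex III subunits 24.2% ± 0.26, and the 4 complex II subunits 7.37% ± 0.33. Cytochrome c took 0.332% ± 0.012 and the 5 assembly and associated factors 0.490% ± 0.035.

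**Figure D1:**
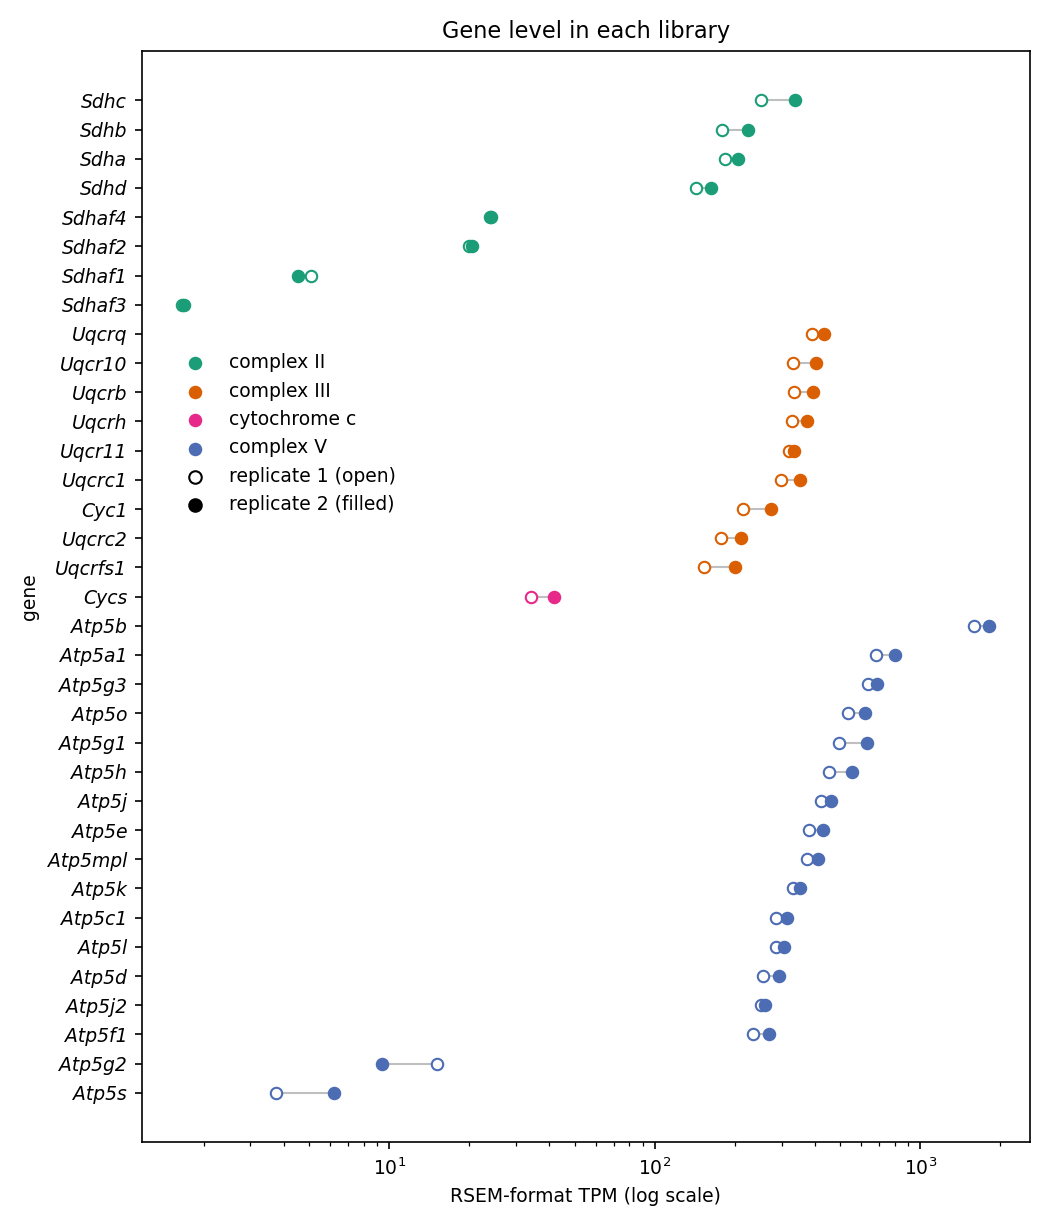
TPM on a log scale for 35 genes in replicate 1 (open) and replicate 2 (filled), grouped by complex and ordered by mean; the second Atp5o entry is not drawn. Subunits of complexes II, III and V lie between 142 and 1819 except Atp5g2, which lies with Cycs and the assembly factors below 50.

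Complex II subunits were the lowest of the 3 sets. Their median TPM was 182 in replicate 1 and 215 in replicate 2. Sdhc (chr1:171127165-171150603), one of the membrane anchors, was highest at 252 and 338. Sdhd (chr9:50596357-50603812), the other anchor, was lowest at 142 and 163. The catalytic flavoprotein Sdha stood at 184 and 206, and the iron-sulphur subunit Sdhb at 180 and 223, overlapping each other between the libraries. Sdhc lay above and Sdhd below both in each library. The place of Sdhc depended on the table, since its kallisto-format TPM of 207 and 260.2 lay below the 304 and 356 of Sdhb. Sdha stood at 260.3 and 267 in the kallisto-format table, so that Sdhb lay above it in both libraries there.

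The factors that build complex II were far lower than its subunits. Sdhaf4, which assists the flavoprotein, had a TPM of 24.2 and 24.0, and Sdhaf2, which attaches its FAD, 19.95 and 20.5. Sdhaf1, which helps to insert the iron-sulphur clusters of Sdhb, stood at 5.09 and 4.54. Sdhaf3, which acts on the same subunit, stood at 1.66 and 1.69 and rested on 163 and 214 counts.

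The 9 nuclear subunits of complex III lay close together, within 2.34-fold of each other by mean TPM. Their median was 321 in replicate 1 and 353 in replicate 2. Uqcrq (chr11:53427922-53430831), a small subunit, was highest at 391 and 434. Uqcrfs1 (chr13:30540308-30545362), the Rieske iron-sulphur protein, was lowest at 153 and 199.8. Of the 8 neighbouring pairs in this order, 6 stood in the same order in both libraries, and in 2 the values of one gene lay wholly above those of the next. These were the steps from Uqcrc1 (299.5 and 353) to Cyc1 and from Cyc1 (215 and 274) to Uqcrc2 (177 and 211). The step from Uqcrc1 to Cyc1 turned in the kallisto-format table, where Cyc1 stood at 475 and 626 and Uqcrc1 at 455 and 557. Uqcrq, at 508 and 669 in that table, lay just below Uqcr10, at 518 and 671. The small subunits Uqcr10, Uqcrb, Uqcrh and Uqcr11 and the core subunit Uqcrc1 lay between 299.5 and 403 in every library, whereas Cyc1, Uqcrc2 and Uqcrfs1 lay between 153 and 274.

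Cycs (chr6:50562563-50566538), which encodes the somatic cytochrome c that carries electrons from complex III to complex IV, had a TPM of 34.3 and 41.6. Its level was far below that of Cyc1, the cytochrome that reduces it, with a log2 ratio of Cyc1 over Cycs of 2.68 ± 0.05 (SD, n = 2). In the kallisto-format table Cycs stood at 445 and 455, and the same log2 ratio was 0.28 ± 0.26. Cyct, the testis form, had 0 counts in each library, an upper limit of 0.0841 and 0.0757 CPM, counts scaled to a common total, which covers counting error only.

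Complex V held the widest range. Atp5b (chr10:128083273-128090391), the catalytic beta subunit, was the highest of all 36 entries at a TPM of 1588 and 1819. Atp5a1, the alpha subunit that alternates with it in the F1 head, stood at 680.5 and 803. At the gene level Atp5b exceeded Atp5a1 by a log2 ratio of 1.20 ± 0.03 (SD, n = 2), or 2.30-fold. The head holds both in equal number, but gene TPM includes forms that are not protein coding. Protein coding transcripts held 73.3% of the TPM of Atp5b and 98.5% of that of Atp5a1. The main coding transcripts lay closer, with Atp5b-201 at 1166 and 1332 and Atp5a1-201 at 666 and 792. Of the central stalk, the gamma subunit Atp5c1 stood at 286.5 and 314, the delta subunit Atp5d at 255 and 295, and the epsilon subunit Atp5e at 382 and 429. The gamma subunit lay below the beta subunit by a log2 difference of 2.50 ± 0.05.

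The peripheral stalk, which holds the head still, was led by Atp5o at a TPM of 535 and 619. Atp5h followed at 454 and 551 and Atp5j at 424 and 459.6, while Atp5f1, the b subunit, was lowest at 234 and 269. In the kallisto-format table Atp5o stood at 1031 and 1159 and Atp5h at 1028 and 1429, so that Atp5h led in replicate 2. The small membrane subunits ranged from 251 and 260.2 for Atp5j2 to 375 and 413 for Atp5mpl, with Atp5k at 331 and 353 and Atp5l at 287 and 306. This order turned in the kallisto-format table, with Atp5j2 highest at 679 and 667, Atp5l at 619 and 632, Atp5mpl at 495 and 495 and Atp5k lowest at 413 and 447. Without Atp5g2, the 15 other subunits of complex V lay within 6.78-fold of each other. Of 15 neighbouring pairs in the order of complex V, 12 stood in the same order in both libraries, and in 5 the lower value of one gene exceeded both values of the next. Atp5s, a factor associated with the complex, stood at 3.73 and 6.18, on 127 and 200 counts. The second entry of Atp5o (chr16:91684398-91926982) was listed at 0 in replicate 1 and at a TPM of 0.25 in replicate 2. It shares 243 exon bases on the same strand with the first entry, and 94.0% of its 31-base windows also occur in another gene.

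In the RSEM-format table the c ring genes differed most among themselves, through the low level of Atp5g2. Atp5g3 had a TPM of 635 and 684 and Atp5g1 495 and 632, whereas Atp5g2 had 15.2 and 9.35. Atp5g1 therefore held 43.2% and 47.7% of c subunit TPM, a mean of 45.5% ± 3.2, and Atp5g3 held 53.5% ± 2.7. Atp5g3 exceeded Atp5g1 in each library, by a log2 ratio of 0.24 ± 0.17. Atp5g2 held 1.02% ± 0.44. In the kallisto-format table Atp5g2 stood at 439 and 443, which made its share 21.5% ± 0.75 and that of Atp5g1 31.8% ± 2.9. By mean TPM in that table the c ring genes ranged from 441 to 956, and the F1 subunits more widely, from 400 to 2438. The level of Atp5g2 thus rested on the table used, and the order of Atp5g3 over Atp5g1 held in both tables.

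Between complexes, the median subunit of complex V exceeded that of complex II by a log2 ratio of 1.01 ± 0.06 (SD, n = 2). It exceeded that of complex III by 0.24 ± 0.01, a difference much smaller than the range within either complex. The kallisto-format table gave 1.43 ± 0.06 and 0.25 ± 0.15. Of the subunits encoded in mitochondrial DNA, mt-Cytb, cytochrome b of complex III, stood at a TPM of 4927 and 5114. The complex V subunit genes mt-Atp6 and mt-Atp8, which overlap in the mitochondrial genome, stood at 1528 and 2088 and at 3526 and 3332. In the kallisto-format table mt-Atp6 had 10862 and 11361 and mt-Atp8 was listed at 0. In the RSEM-format table all 3 were above every nuclear subunit except that mt-Atp6 in replicate 1 lay below Atp5b.

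Nearly all members were higher in replicate 2 than in replicate 1. CPM were scaled by TMM, which sets most genes level, and compared as a log2 ratio of replicate 2 over replicate 1 wherever the mean count reached 100. Of 35 members past that limit, 34 were higher in replicate 2, against 62.7% of 11760 genes. The second Atp5o entry, with 0 and 3.47 counts, did not pass. No member past the limit was at least 2-fold different, against 1.02% of genes. At a limit of 1.5-fold, 6 members were higher, against 1.88% of genes. The median ratio was 0.47, or 1.38-fold, against 0.08 over all genes, and 33 members lay above the upper quartile of all genes, 0.25.

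The ratios of complexes II and III spanned narrow ranges, and those of complex V a wider one through Atp5g2 alone. The 15 other complex V subunits lay between 0.32 for Atp5j2 and 0.62 for Atp5g1, a range no wider than that of complex III. All 4 complex II subunits lay between 0.43 and 0.62, and the 9 complex III subunits between 0.34 for Uqcr11 and 0.67 for Uqcrfs1. Within complex V the 5 F1 subunits lay between 0.41 and 0.52, the 4 peripheral stalk subunits between 0.38 and 0.56, and the 4 membrane subunits between 0.32 and 0.41. The c ring genes were spread from -0.42 for Atp5g2 over 0.38 for Atp5g3 to 0.62 for Atp5g1. Cycs stood at 0.60, with 2713 and 3872 counts. The highest ratio was that of Atp5s at 0.74, on few counts, and the lowest above 0 was that of Sdhaf1 at 0.11. Atp5g2 stood alone below 0, with 267 and 188 counts, and its kallisto-format counts gave 0.46.

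**Figure D2:**
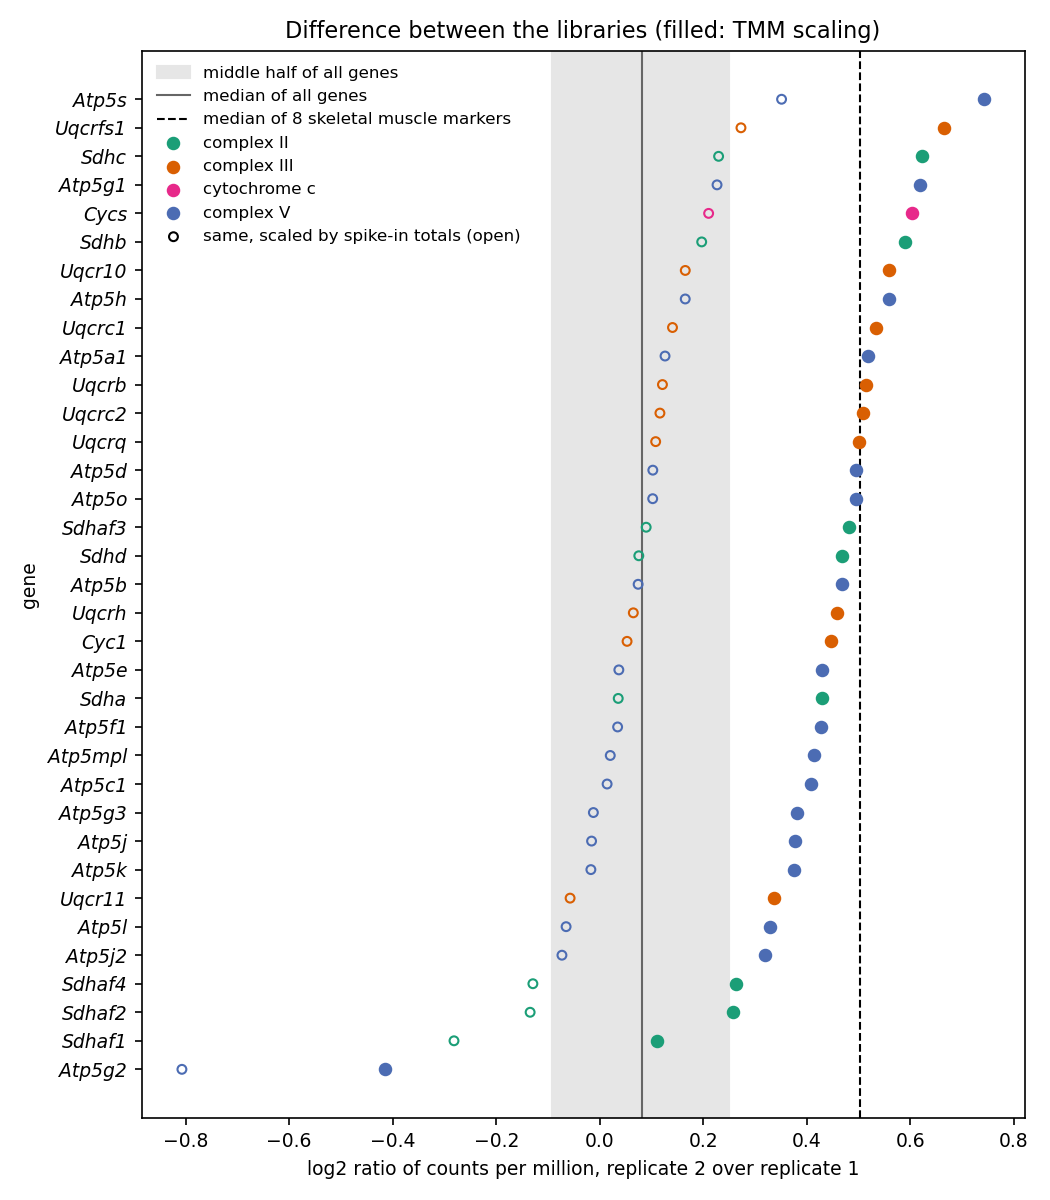
Log2 ratio of CPM, replicate 2 over replicate 1, for 35 genes under TMM scaling (filled) and spike-in scaling (open); the grey band and lines give all genes and the skeletal muscle markers. Under TMM scaling 33 genes lie to the right of the band's upper edge at 0.25, and Atp5g2 lies at -0.42.

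Scaling by library totals moved the ratio of every gene alike by -0.24 and by spike-in totals by -0.39, and the medians of all genes were then -0.16 and -0.31. The median of the members lay 0.385 above that of all genes under TMM, a gap that a shift of every gene alike cannot change. With spike-in totals 25 of 35 members were higher in replicate 2, against 9.83% of genes, and the median of the members was 0.07. With library totals 33 were higher, against 26.1% of genes. Under TMM the median ratio of the skeletal muscle markers was 0.50, with 8 of 8 above 0, and 12 of 35 members lay above that median. The bone and cartilage, blood and fat markers that passed the limit moved the other way, with median ratios of -6.45, -0.36 and -1.34. These medians covered unlike genes. Of the bone and cartilage markers 6 were at least 2-fold lower, whereas Col2a1 and Acan stood at -0.05 and -0.26. Of the blood markers S100a8 and S100a9 stood at -7.02 and -5.59, Alas2 at -0.36, and the globin genes Hba-a1 and Hbb-bs at -0.03 and -0.16. The part of these markers in the ratios of the members was not tested.

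The intervals deposited with the TPM, which cover the assignment of reads within a library but not differences between animals, were apart for 25 of 35 members. All 25 were higher in replicate 2, against 4.84% of genes with an interval higher in replicate 2 and 31.8% with intervals apart in either direction. The members were not matched with genes of like counts. An interval need not hold the TPM given here: for Atp5b they ran from 1526 to 1577 and from 1760 to 1806, below its TPM of 1588 and 1819.

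Under TMM, lists of related genes moved in the same direction, where 62.7% of all genes past the limit were above 0. All 46 complex I subunits passed the limit and were above 0 with a median of 0.45, and all 14 complex IV subunits that passed had a ratio above 0 with a median of 0.40. The 6 complex III assembly genes were all above 0 with a median of 0.41, as were the 5 genes of complex V assembly and regulation with a median of 0.50. Ratios of mt-Cytb, mt-Atp6 and mt-Atp8 were 0.33, 0.73 and 0.19. None of these genes was at least 2-fold different between the libraries. With spike-in totals 9.83% of genes were above 0. Above 0 on that scale were 31 of the 46 complex I and 8 of the 14 complex IV subunits. So were 3 of the 6 complex III assembly genes, 4 of the 5 genes of complex V assembly and regulation and 1 of the 3 mitochondrially encoded genes.

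The level of a member could depend on which table it was read from. Kallisto-format TPM exceeded RSEM-format TPM by a median log2 ratio of 0.53 over 11159 nuclear protein coding genes, and by 0.69 over the members. Over 2-fold higher in the kallisto-format table were 8 of 35 members, against 7.79% of those genes in either direction. They were Atp5g2, Cycs, Atp5e, Atp5j2, Atp5h, Cyc1, Atp5l and Uqcrc2. Relative to the median of nuclear protein coding genes, 3 remained over 2-fold away, against 1.34%: Atp5g2 by 4.64, Cycs by 3.03 and Atp5e by 1.11 on the log2 scale. Atp5e had a kallisto-format TPM of 1089 and 1444 against 382 and 429.

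**Figure D3:**
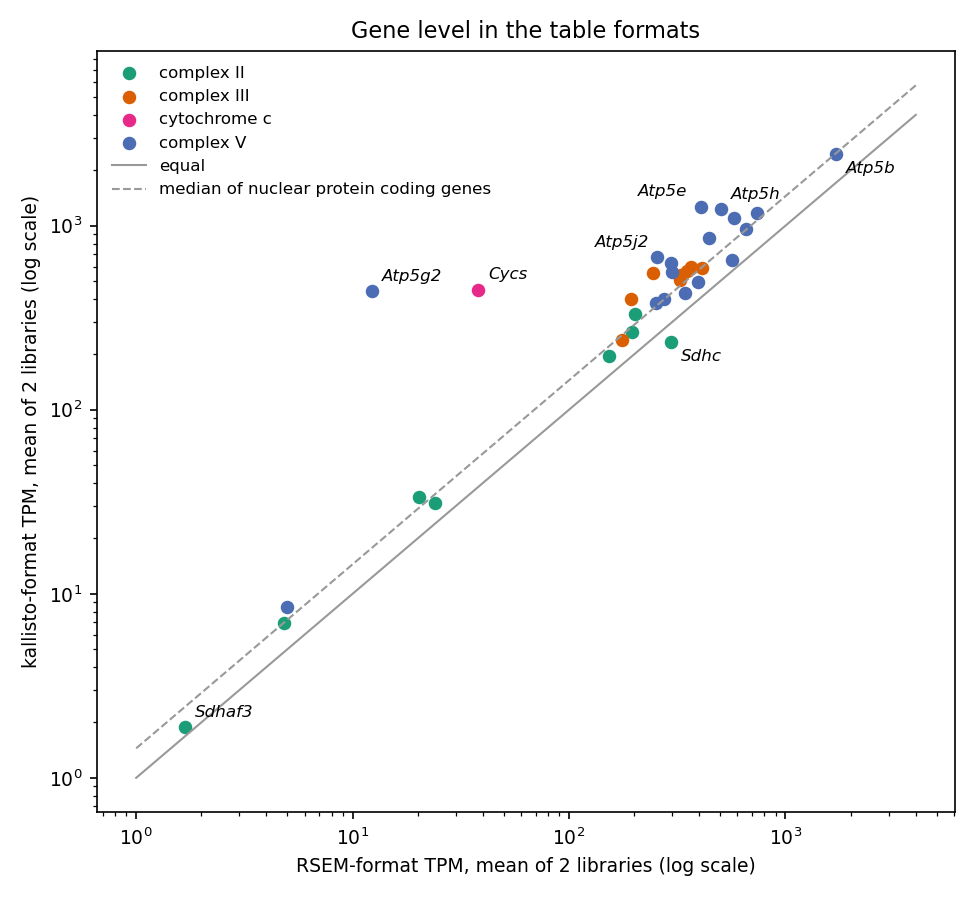
Mean TPM of 35 genes over both libraries in the RSEM-format table (x axis, log scale) and the kallisto-format table (y axis, log scale), with lines for equal values and for the median of nuclear protein coding genes. Atp5g2 and Cycs lie far above both lines, and Sdhc lies below the line of equal values.

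For Atp5g2 the tables also differed at a copy of the gene. Gm10175 (chr7:23946646-23947290), annotated as a transcribed processed pseudogene, shares 615 windows of 31 bases with Atp5g2. In all, 40.2% of the windows of Atp5g2 occur in another gene. The RSEM-format table gave Gm10175 a TPM of 289 and 316 and 4445 and 5543 counts, and the kallisto-format table gave it 0 and 2.8e-05 counts. Atp5g2 and its pseudogenes together had 4712 and 5731 counts in the RSEM-format table, against 3952 and 4876 in the kallisto-format table. Gm10039, a processed pseudogene, shares 354 windows with Atp5g1. It stood at a TPM of 39.1 and 37.4 in the RSEM-format table and at 0 in the kallisto-format table. With pseudogenes that share at least 50 windows added to each c subunit gene, Atp5g2 held 20.02% ± 0.86 of c subunit TPM in the RSEM-format table and Atp5g1 38.1% ± 2.6. The pseudogenes named here were chosen after their values were seen.

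**Figure D4:**
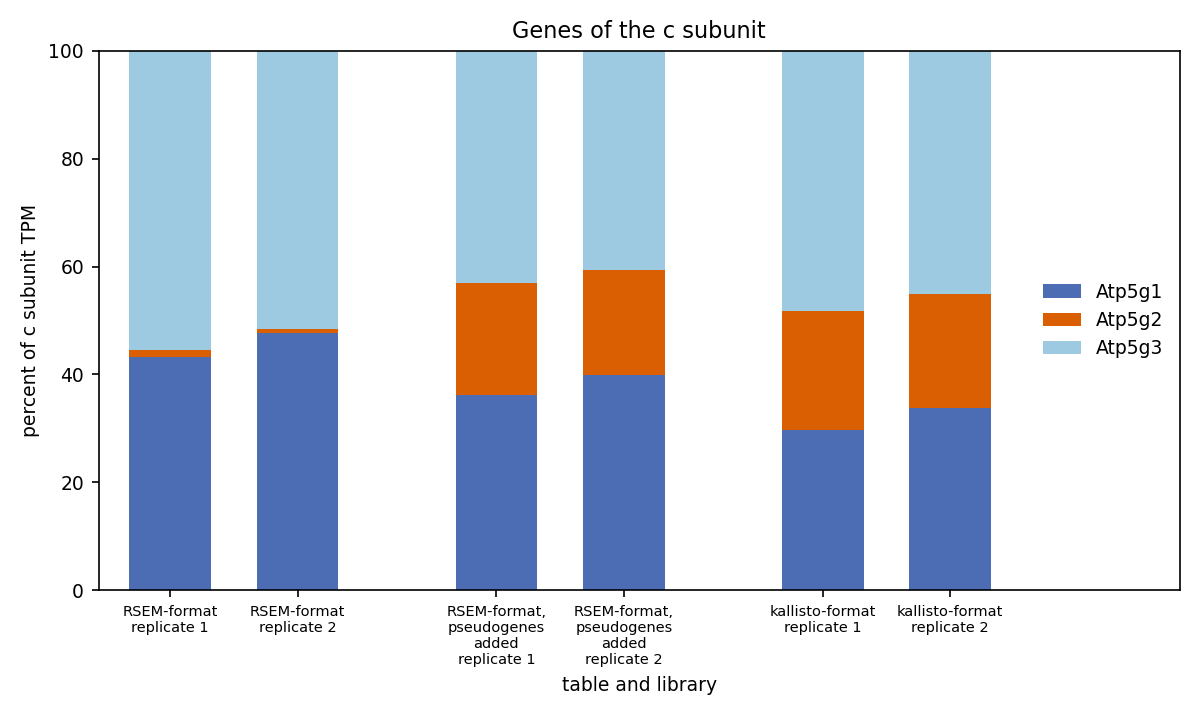
Percent of c subunit TPM held by Atp5g1, Atp5g2 and Atp5g3 in each library, in the RSEM-format table, in the same table with pseudogenes added to their parent gene, and in the kallisto-format table. Atp5g2 is near 1% in the first and near 20% in the other bars.

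Other members had such copies too. For Atp5l, the g subunit, the RSEM-format table gave the pseudogene Gm10221 a TPM of 271 and 366, and the kallisto-format table listed it at 0. Together with its pseudogenes Atp5l stood at 560.1 and 677 in the RSEM-format table, against 619 and 633 in the kallisto-format table. In counts the sums lay apart, at 5393 and 6945 against 3801 and 4582.5. Atp5l alone had 3772 and 4448 counts against 3797 and 4579. Gm10250, which shares 362 windows with Atp5h, stood at 121 and 150.5 and at 0 and 0.283. For Atp5o the order was turned, since Gm5436 stood at 10.0 and 12.3 in the RSEM-format table and at 86.6 and 96.0 in the kallisto-format table. In 12 of 35 members, among them Atp5a1, Atp5g3 and the complex II genes Sdha, Sdhb and Sdhd, no window occurred in another gene. Shared windows were counted for the members only, so no share over all genes stands beside this. Of the 11 members that share at least 10% of their windows, 2 lay over 2-fold from the median of nuclear protein coding genes, and of the other 24, 1 did.

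For Cycs the tables differed in the transcript as well as in the copy. In the RSEM-format table the 3123-base protein coding transcript Cycs-202 had a TPM of 31.3 and 39.6 and the 607-base retained intron form Cycs-201 had 3.01 and 2.01. In the kallisto-format table Cycs-202 stood at 41.5 and 48.9 and Cycs-201 at 403 and 406. The large difference in gene TPM therefore lay in the short form. Kallisto-format counts of Cycs were 5154 and 6831, against 2713 and 3872, a smaller difference than that of TPM. Gm10108, a processed pseudogene, stood at 117 and 138 in the RSEM-format table and at 0 in the kallisto-format table. Gm10053 (chr19:24875686-24876631), annotated as protein coding and sharing 885 windows with Cycs, had a TPM of 163 and 192 and of 156 and 190 in the tables. Its counts differed more, with 3883 and 5211 in the RSEM-format table and 2187 and 3209 in the kallisto-format table. Gm10108 had 724 and 973 counts in the RSEM-format table and 0 in the kallisto-format table.

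Most members had 1 dominant transcript in the RSEM-format table. In 31 of 35 detected members the same transcript led in both libraries with over 50% of the gene's abundance, against 67.3% of detected nuclear protein coding genes. The same transcript led in both libraries and both tables in 20, of which 17 have more than 1 annotated transcript, against 67.5% of genes. Protein coding transcripts held at least 90% of gene TPM in both libraries for 26 of 35 members, and the median was 98.5%. In the kallisto-format table the median was 87.2%. The share on protein coding transcripts was not counted over all detected genes, so these values describe the members only.

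The share on protein coding forms differed between the tables for several genes. For Uqcrh, the hinge protein of complex III, protein coding transcripts held 66.3% and 66.9% in the RSEM-format table and 0% and 17.6% in the kallisto-format table. For Uqcr11 they held 99.3% and 99.6% against 11.1% and 0%, and for Atp5k 98.5% and 98.2% against 0.550% and 13.5%. Atp5j went the other way: the 526-base retained intron form Atp5j-208 held 91.3% and 94.1% in the RSEM-format table, and protein coding forms held 88.8% and 62.6% in the kallisto-format table. A leading form that is not protein coding in both libraries was found for 3 members, Atp5f1, Atp5j and Sdhaf2, against 5.11% of genes in the RSEM-format table. There were 6 such members in the kallisto-format table, Atp5k, Atp5l, Cycs, Sdhaf2, Uqcr11 and Uqcrh, against 6.97% of genes, so that Sdhaf2 was in both sets. For Atp5f1 the form annotated for nonsense-mediated decay, Atp5f1-203, held 49.5% and 61.9%.

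**Figure D5:**
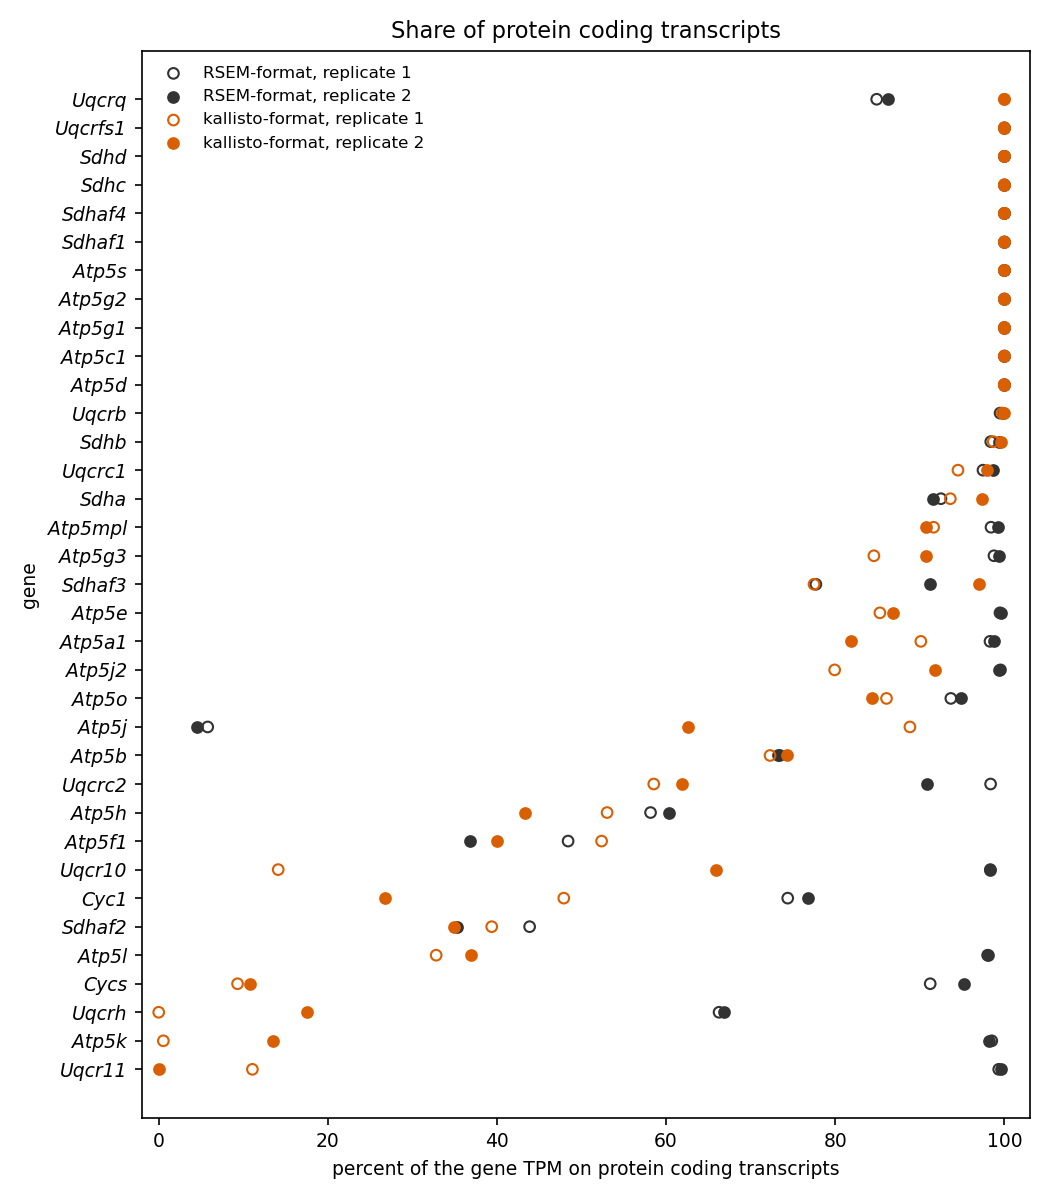
Percent of gene TPM on protein coding transcripts for 35 detected genes in each library, in the RSEM-format table (black) and the kallisto-format table (orange), ordered by the kallisto-format mean. Uqcr11, Atp5k, Uqcrh and Cycs lie below 20% in the kallisto-format table and at 66% or more in the RSEM-format table.

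The gamma subunit gene Atp5c1 has a 37-base exon near its end (chr2:10056770-10056806, minus strand) whose use differs between tissues in human and bovine, where heart and skeletal muscle leave it out. The junctions that tell the forms apart follow, with 20 bases before the junction in lower case and 10 after it in capitals.
with the exon, Atp5c1-203: atctctggggctgctgctctGGATTAATGA
without the exon, Atp5c1-201: atctctggggctgctgctctGTAAAGAAGA
Transcripts without the exon had a summed TPM of 261 and 291 and those with it 22.9 and 22.3. The form without the exon thus held 91.9% and 92.9% of the TPM on transcripts that reach this end. The kallisto-format table gave 87.6% and 86.6%, with a further 237 and 235 TPM on transcripts that hold neither junction. The form without the exon was the main one in both libraries and both tables.

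The letters of motifs known from promoters of respiratory genes were counted in the members' promoters, with no relation to the ratios between libraries examined. RefSeq promoters of GRCm38.p6, 250 bases before to 50 bases after a start, were found for 26 of the 35 symbols. They were matched by gene ID, and by symbol where no ID matched. Searched on both strands were GCGCATG for NRF1, CCGGAAG for ETS factors, AAGGTCA for estrogen-related receptors and AAGATGG for YY1, and no match of one motif overlapped another. The NRF1 letters occurred in 7 of 26 member genes, 26.9%, against 4.41% of 27025 genes. The ETS letters occurred in 12, 46.2%, against 9.93%, and the estrogen-related receptor letters in 5, 19.2%, against 5.38%. The YY1 letters occurred in 2, 7.69%, against 7.28%. The 27025 genes were not matched to the members in level or in base composition of the promoter. Shown are Cycs (chr6:50566520-50566819), Atp5k (chr5:108434350-108434649) and Atp5l (chr9:44920693-44920992), all on the minus strand, with matches in capitals; the last pair hold 3 of the 4 motifs.
Cycs: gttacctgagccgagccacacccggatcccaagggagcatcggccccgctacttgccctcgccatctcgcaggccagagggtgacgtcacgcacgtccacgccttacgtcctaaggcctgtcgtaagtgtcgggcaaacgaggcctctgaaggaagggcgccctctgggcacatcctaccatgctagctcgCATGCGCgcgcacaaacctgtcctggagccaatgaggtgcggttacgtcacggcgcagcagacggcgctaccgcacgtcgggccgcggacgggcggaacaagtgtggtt
Atp5k: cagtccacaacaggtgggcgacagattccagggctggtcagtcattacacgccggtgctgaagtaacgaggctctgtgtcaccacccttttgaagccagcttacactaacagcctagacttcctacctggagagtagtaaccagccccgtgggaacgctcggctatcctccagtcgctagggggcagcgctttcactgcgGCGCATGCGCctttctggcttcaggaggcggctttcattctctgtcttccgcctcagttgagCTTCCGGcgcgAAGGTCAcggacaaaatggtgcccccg
Atp5l: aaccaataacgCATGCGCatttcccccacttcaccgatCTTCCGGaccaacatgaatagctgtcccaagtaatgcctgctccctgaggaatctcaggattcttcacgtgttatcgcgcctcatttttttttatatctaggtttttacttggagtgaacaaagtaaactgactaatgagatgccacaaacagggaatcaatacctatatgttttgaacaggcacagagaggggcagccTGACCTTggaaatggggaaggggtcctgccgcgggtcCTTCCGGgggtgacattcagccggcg
In Cycs the NRF1 letters begin 59 bases before the start. In Atp5k they occur on both strands in 1 overlapping run that begins 50 bases before the start, and the ETS and estrogen-related receptor letters lie after it. In Atp5l the NRF1 letters begin 239 bases before the start, with ETS letters on both sides of the start. A match is a description of the letters and not of binding.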

How the data were processed

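Total RNA of 2 gastrocnemius libraries was measured. Per the file headers, the deposited RSEM-format tables give expected counts, TPM, posterior mean TPM and each transcript's percent of its gene. The deposited bounds of TPM, a signal that is never negative, are the interval columns per the file headers. Per the file headers, the deposited kallisto-format tables give estimated counts and TPM. Which quantifier versions were run is not stated in these sources. The text files deposited beside them name mm10 and GENCODE M21. Rows that name no gene held 1.38e-05% and 5e-06% of counts and were left out.

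Expected counts were rounded, and log2 ratios used edgeR 4.0.16 (R 4.3.3, TMM, prior count 0.5) where the mean count reached 100; the code was tested on simulated data. Alternatives were size factors of DESeq2 1.42.0, spike-in totals and library totals. Table formats were compared with a pseudocount of 0.01, after kallisto-format values were summed per gene. Shared windows are runs of 31 bases found in transcripts of another gene. Every member is named; described in full are the highest and lowest of each complex, the c subunit genes, members past 2-fold and those under TPM 1. Members and lists were chosen with earlier results of these data known. Tables were made with pandas 2.3.3, scipy 1.17.1 and numpy 2.4.6 under Python 3.11.15.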

Additional observations from a re-analysis of the deposited data

How the results depend on the processing

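No paired analysis was possible because the series holds 1 group. The members' share of gene TPM, 1.16%, was 2.01% in the kallisto-format table, 0.834% of expected counts, 2.48% of nuclear protein coding TPM and, chosen after seeing the data, 2.66% of kallisto-format nuclear protein coding TPM. Without 1 replicate it was 1.08% to 1.24%. The number of members at least 2-fold different, 0 under TMM, was 1 with no filter on low counts, the second Atp5o entry, and 6 at 1.5-fold. The median ratio, 0.47, was 0.22 with library totals, 0.074 with spike-in totals, 0.54 with kallisto-format counts and, relative to the median of muscle markers, a comparison chosen after seeing the data, -0.035, with 12 members above it. Complex V over complex II was 1.43 on the log2 scale in the kallisto-format table, against 1.01, and 0.97 to 1.06 without 1 replicate. The share of Atp5g1, 45.5%, was 31.8% in the kallisto-format table, 40.6% of expected counts and 38.1% with pseudogenes, an alternative chosen after seeing the data. It was 43.2% to 47.7% without 1 replicate. The 8 members over 2-fold apart between tables were 1 when counts were compared and 3 relative to the median; leaving out 1 replicate gave 8 or 9. Library and spike-in totals shift every gene alike, so the sign changes they give, 1 and 9 of 35 members, follow from that shift. With kallisto-format counts 1 member changed sign, Atp5g2. Counts of 100 to 400 for Atp5s, Atp5g2, Sdhaf1 and Sdhaf3 limit their ratios. With 2 libraries each SD rests on 1 difference.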
